A study of Homo sapiens with 8 samples.

Results

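The cholesterol and fatty acid synthesis genes described here are 37 genes chosen by name, covering the enzymes that make sterols, the proteins that sense and move them, and the enzymes that make and modify fatty acids. Each was represented by the transcript cluster (the set of probes that stands for a transcript) whose annotation gives exactly 1 gene symbol equal to the gene's name and whose mean over the 8 samples was the highest. This gave a value for 34 of the 37 genes, against 33616 genes in the whole table. MYLIP and FADS1 had a transcript cluster only under several symbols and FDFT1 was not analysed here, so these 3 have no value. The 34 comprise 17 sterol synthesis enzymes, 8 genes of sterol regulation and transport and 9 genes of fatty acid synthesis.

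RNA came from LN229, an established human glioblastoma cell line, grown on the membrane of culture inserts for 18 h. In 4 samples titled 23 Pa CSS, an agar cushion and steel discs pressed on the cells (CSS is compressive solid stress), and in 4 samples titled no CSS neither was present, so that cushion and pressure cannot be told apart. The titles are contradicted by each sample's source name and description, which exchange the 2 conditions. Groups follow the titles here, a difference is always the titled 23 Pa CSS mean less the titled no CSS mean of log2 signal, and every sign turns if the source names are right.

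Cells build cholesterol from acetyl-CoA through mevalonate, isoprenoid diphosphates, squalene and lanosterol. Most enzymes of this route, and several of fatty acid synthesis, are transcribed under SREBP factors, which are made as membrane precursors and reach the Golgi only when the escort SCAP is free of the INSIG proteins that hold it in the endoplasmic reticulum. When sterols are plentiful, INSIG proteins keep SCAP in place and oxysterols activate LXR receptors, which turn on export genes such as ABCA1. INSIG1 is itself a target of the SREBP factors, so its transcript is commonly read as a gauge of their activity, whereas INSIG2 is not regulated in that way.

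The sequences upstream of INSIG1, INSIG2 and SREBF2 are shown because the paired INSIG genes had the most opposed differences among the regulators, and SREBF2 as the gene of the factor that acts on the sterol enzymes. Each is the 250 bases before the RefSeq gene start in build GRCh38.p14, on the plus strand, at chr7:155297628-155297877, chr2:118088221-118088470 and chr22:41832855-41833104 in that order. Capitals mark matches on either strand to CACNCCAC (a core of the sterol regulatory element), CCAAT (bound by NF-Y) and ACGTG (in E-box and hypoxia response elements).
INSIG1: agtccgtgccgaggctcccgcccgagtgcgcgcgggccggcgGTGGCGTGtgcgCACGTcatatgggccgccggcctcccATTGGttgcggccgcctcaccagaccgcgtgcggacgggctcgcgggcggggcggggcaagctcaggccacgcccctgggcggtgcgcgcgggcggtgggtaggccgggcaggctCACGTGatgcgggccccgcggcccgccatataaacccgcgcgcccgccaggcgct
INSIG2: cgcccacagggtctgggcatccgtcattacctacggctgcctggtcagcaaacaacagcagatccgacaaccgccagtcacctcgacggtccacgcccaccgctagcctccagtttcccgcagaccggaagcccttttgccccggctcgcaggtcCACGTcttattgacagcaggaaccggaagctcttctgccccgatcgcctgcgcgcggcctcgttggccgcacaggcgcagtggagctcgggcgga
SREBF2: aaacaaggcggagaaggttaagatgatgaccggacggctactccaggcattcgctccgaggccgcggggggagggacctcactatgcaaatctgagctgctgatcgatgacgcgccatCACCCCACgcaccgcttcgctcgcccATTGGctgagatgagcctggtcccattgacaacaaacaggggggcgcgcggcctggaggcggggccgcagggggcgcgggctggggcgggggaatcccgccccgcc

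A promoter window was found for 33 of the 37 genes. CACNCCAC occurred in 4 of them (INSIG1, SREBF2, ABCA1 and SCD), against 4.72% of 27303 promoters of the same length, and the stricter CACCCCAC, a part of the same matches, in 2 (SREBF2 and ABCA1), against 2.37%. CCAAT occurred in 20 of the 33, against 33% of all promoters. ACGTG occurred in 8, against 18.7%, with INSIG1 holding 3 matches, INSIG2 1 and SCAP 2; where the letters read CACGTG the match was counted on both strands. GGGCGG, the box bound by Sp1, occurred in 30, against 42.3%. These are matches of letters, and no binding was measured.

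INSIG2 was the only one of the 34 measured genes that passed the test, which was limma's moderated test with Benjamini-Hochberg adjustment over all 135750 transcript clusters and a threshold of 0.05. It rose 2.09-fold in the samples titled 23 Pa CSS. Its log2 signal was 10.95, 11.34, 11.75 and 11.32 in the samples titled 23 Pa CSS, against 10.38, 10.48, 10.09 and 10.14 in those titled no CSS. All 4 samples of the first group lay above all 4 of the second. The means were 11.34 ± 0.329 titled 23 Pa CSS and 10.27 ± 0.187 titled no CSS (SD, n = 4 each), a difference of 1.07 with a 95% interval of 0.63 to 1.50 (limma adjusted p = 0.0257). The call was lost with arrays centred on hybridisation controls (0.76, adjusted p = 0.0754) and without any 1 of 6 samples, namely each of the 4 titled no CSS and replicates 2 and 4 titled 23 Pa CSS (adjusted p = 0.0537 to 0.084), while the difference stayed between 0.93 and 1.20 whichever sample was left out.

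One call among 34 genes stands beside 2.01% of all transcript clusters called, 1.36% of all genes called higher and 0.97% called lower. Among the 9206 genes with a mean log2 signal of at least 8, a level that 28 of the 34 members reached, 6.32% were called in either direction. The members' share is thus near the background or below it. The number of members called depended on the transcript clusters tested beside them. Fitted and adjusted over the 36176 transcript clusters with exactly 1 symbol, of which 4.82% were then called, 6 members passed. INSIG2 and AACS passed as higher and INSIG1, ABCA1, STARD4 and IDI1 as lower. The share called among genes with a mean signal of at least 8 was not taken for this adjustment, so these 6 have no background of like signal. The values of these 6 members are therefore given sample by sample.

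INSIG1, which shares its role as SCAP anchor with INSIG2, had a difference of the opposite sign. Its signal was 10.44, 9.38, 9.91 and 9.87 in the samples titled 23 Pa CSS, against 10.52, 11.31, 11.07 and 10.78 in those titled no CSS. The groups did not overlap, but replicate 1 titled 23 Pa CSS lay just under replicate 1 titled no CSS. The means were 9.90 ± 0.431 titled 23 Pa CSS and 10.92 ± 0.344 titled no CSS (SD, n = 4 each), and the difference of −1.02 (95% interval −1.56 to −0.48) did not pass over all transcript clusters (limma adjusted p = 0.0606).

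The remaining regulators split as well. SCAP, the escort that INSIG proteins retain, ranged from 10.59 to 11.06 in the samples titled 23 Pa CSS and from 10.18 to 10.53 in those titled no CSS, without overlap (difference 0.58, limma adjusted p = 0.115). A second, dimmer transcript cluster with the symbol SCAP alone (TC0300007296.hg.1), which the rule on the highest mean leaves aside, differed by 1.44 and passed (9.16 ± 0.419 titled 23 Pa CSS and 7.72 ± 0.281 titled no CSS, SD, n = 4 each, limma adjusted p = 0.0168), so that the size and the call for SCAP depend on the probes. The factors themselves did not pass. SREBF2, which encodes SREBP2, averaged 10.06 ± 0.224 titled 23 Pa CSS and 10.63 ± 0.55 titled no CSS (SD, n = 4 each, difference −0.57, adjusted p = 0.313). SREBF1, whose products drive fatty acid as well as sterol genes, averaged 10.28 ± 0.593 titled 23 Pa CSS and 10.91 ± 0.427 titled no CSS (difference −0.63, adjusted p = 0.339). Signal of both overlapped between the groups, and array signal of the transcript says nothing of the cleaved, active protein.

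**Figure D1:**
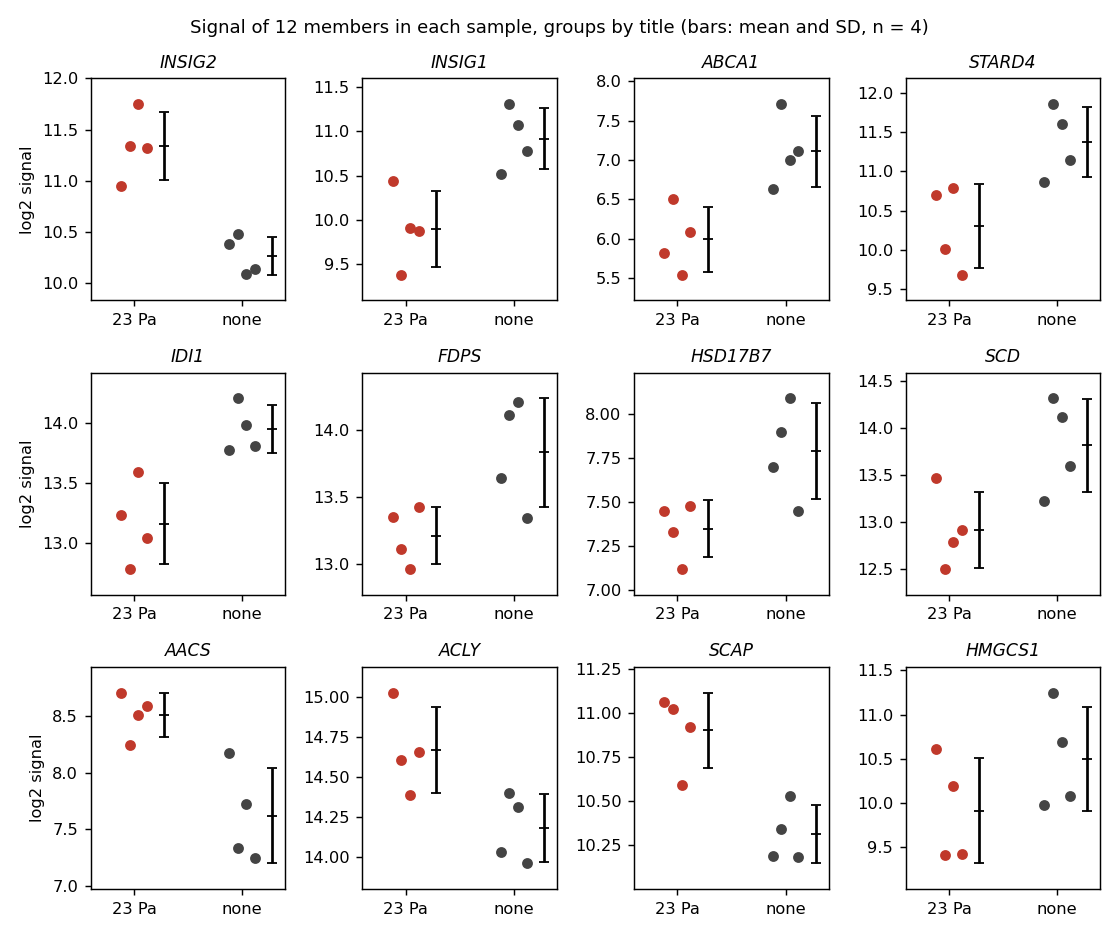
Log2 signal (vertical axis, its own range in each panel) of 12 genes in the 4 samples titled 23 Pa CSS (red, left) and the 4 titled no CSS (dark grey, right), with the mean and SD of each group beside the points. INSIG2, SCAP and AACS lie higher and INSIG1, ABCA1, STARD4 and IDI1 lower without overlap, whereas FDPS, HSD17B7, SCD, ACLY and HMGCS1 overlap between the groups.

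Of the genes that move sterols, ABCA1 and STARD4 had the largest differences and NPC1 nearly none. ABCA1, the pump that loads cholesterol onto apolipoproteins and a classic LXR target, had 5.82, 6.50, 5.54 and 6.09 in the samples titled 23 Pa CSS, against 6.63, 7.71, 7.00 and 7.11 in those titled no CSS. The groups did not overlap, though the highest sample titled 23 Pa CSS came within reach of the lowest titled no CSS. Its difference of −1.12 (95% interval −1.70 to −0.54) missed the threshold over all transcript clusters (limma adjusted p = 0.0555). The signal of ABCA1 was not far above the background rows, whose medians over 612 negative controls were 4.74 to 5.17 in the samples titled 23 Pa CSS and 4.76 to 5.07 in those titled no CSS. A second set of 23 antigenomic background rows averaged lower, 4.12 to 4.25 titled 23 Pa CSS and 3.85 to 4.12 titled no CSS. STARD4, a cytosolic sterol carrier and SREBP target, had 10.70, 10.01, 10.79 and 9.68 in the samples titled 23 Pa CSS, against 10.87, 11.86, 11.61 and 11.15 in those titled no CSS. The groups did not overlap, but replicates 1 and 3 titled 23 Pa CSS lay just under replicate 1 titled no CSS (difference −1.08, 95% interval −1.72 to −0.44, adjusted p = 0.0862). NPC1, which lets cholesterol out of lysosomes, averaged 12.53 ± 0.386 titled 23 Pa CSS and 12.61 ± 0.404 titled no CSS (SD, n = 4 each), and the interval of its difference, −0.62 to 0.47, lies within a 2-fold change either way.

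None of the 17 measured enzymes of sterol synthesis passed limma's threshold. The unadjusted p was under 0.05 for 4 of them (1 higher and 3 lower), a share near that of all genes (19.3%) and below that of the genes with a mean signal of at least 8 (37.8%). Differences were above 0 in 7 and below 0 in 10, and the median was −0.03, beside 0.09 over all 33616 genes. For 14 of the 17, the whole 95% interval lay within a log2 difference of 1, that is within a 2-fold change in either direction, as it did for 83.2% of all genes and 71% of those with a mean signal of at least 8; the exceptions were HMGCS1, IDI1 and FDPS. IDI1, the isomerase that yields the allylic isoprenoid unit, had 13.23, 12.78, 13.59 and 13.04 in the samples titled 23 Pa CSS, against 13.78, 14.21, 13.99 and 13.81 in those titled no CSS. It was the only enzyme of the sterol route without overlap between the groups, all 4 samples titled 23 Pa CSS being lower (difference −0.79, 95% interval −1.23 to −0.34, limma adjusted p = 0.0735). FDPS, which makes farnesyl diphosphate at the branch to sterols and to protein prenylation, had 13.35, 13.11, 12.96 and 13.42 in the samples titled 23 Pa CSS, against 13.64, 14.11, 14.21 and 13.34 in those titled no CSS. Replicate 4 titled no CSS lay among the samples titled 23 Pa CSS (difference −0.61, adjusted p = 0.189).

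HMGCS1, the synthase that makes HMG-CoA and is a standard SREBP2 target, spread widely in both groups, from 9.41 to 10.61 in the samples titled 23 Pa CSS and from 9.97 to 11.25 in those titled no CSS (difference −0.59, adjusted p = 0.44). The other early enzymes had small positive differences: the thiolase ACAT2 0.18, the mevalonate kinase MVK 0.34, the phosphomevalonate kinase PMVK 0.33 and the decarboxylase MVD 0.29 (limma adjusted p between 0.456 and 0.836). MVD, at 5.33 on average titled 23 Pa CSS and 5.03 titled no CSS, lay close to the negative controls, though further above the antigenomic rows. Its difference is therefore not read here. From thiolase to farnesyl diphosphate the 7 measured enzymes had a median of 0.18, and the 10 measured from squalene to cholesterol a median of −0.05.

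Among these later enzymes, HSD17B7, the reductase of the 3-keto intermediates, had the smallest p, with 7.45, 7.33, 7.12 and 7.48 in the samples titled 23 Pa CSS, against 7.70, 7.90, 8.09 and 7.45 in those titled no CSS. As with FDPS, only replicate 4 titled no CSS fell among the samples titled 23 Pa CSS (difference −0.44, adjusted p = 0.267). EBP, the isomerase that shifts the ring double bond, had the opposite sign (0.39, 95% interval 0.01 to 0.78, adjusted p = 0.3). SQLE, the epoxidase often named as rate-limiting for the later part of the route, averaged 10.34 ± 0.404 titled 23 Pa CSS and 10.25 ± 0.417 titled no CSS (SD, n = 4 each, 95% interval of the difference −0.47 to 0.65). For CYP51A1, the lanosterol demethylase, the interval was −0.46 to 0.34, for NSDHL, a dehydrogenase of the demethylation steps, −0.45 to 0.26, and for SC5D, the desaturase that follows EBP, −0.46 to 0.45. LSS, which closes the sterol rings, and the reductase TM7SF2 differed by 0.22 and −0.03, the oxidase MSMO1 by −0.19 and the last reductase, DHCR7, by −0.33 (adjusted p between 0.634 and 0.971).

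**Figure D2:**
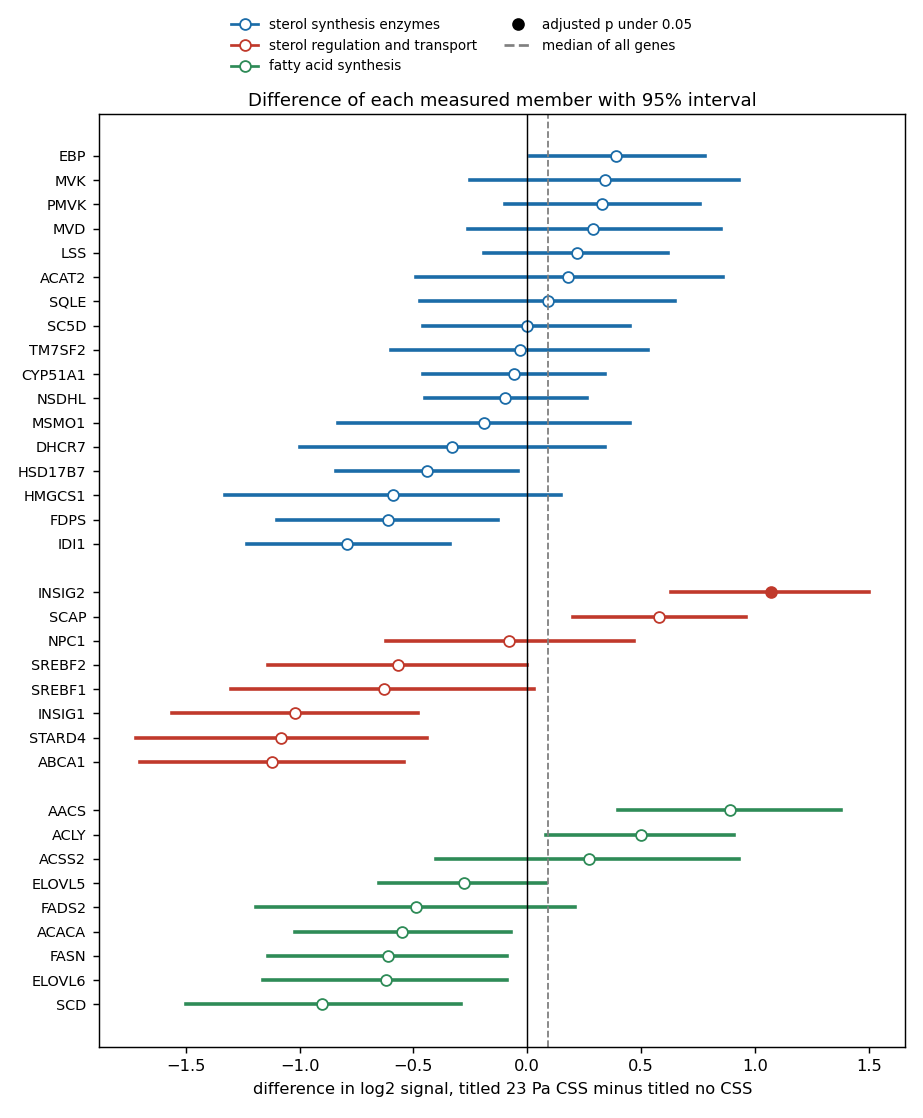
Difference in log2 signal (horizontal axis, 23 Pa CSS less no CSS by title) of each of the 34 measured genes, with its 95% interval from limma and the genes ordered by difference within sterol enzymes (blue), sterol regulation and transport (red) and fatty acid synthesis (green). INSIG2 alone has a filled symbol (adjusted p under 0.05), the sterol enzymes centre on −0.03 and the dashed line marks the all-gene median of 0.09.

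None of the 9 measured genes of fatty acid synthesis passed limma's threshold. The unadjusted p was under 0.05 for 6 (2 higher and 4 lower), beside 19.3% of all genes and 37.8% of those with a mean signal of at least 8, and the median difference was −0.49. Of the enzymes that supply activated acetyl or acetoacetyl units, AACS, ACLY and ACSS2 were measured. AACS, which activates acetoacetate in the cytosol for lipid synthesis, had 8.70, 8.24, 8.51 and 8.59 in the samples titled 23 Pa CSS, against 8.17, 7.34, 7.72 and 7.25 in those titled no CSS. All samples titled 23 Pa CSS were higher, the lowest by little (difference 0.89, 95% interval 0.40 to 1.38, limma adjusted p = 0.0664). ACLY, which splits cytosolic citrate into acetyl-CoA, had 15.03, 14.61, 14.39 and 14.66 in the samples titled 23 Pa CSS, against 14.03, 14.40, 14.31 and 13.96 in those titled no CSS. The groups met at a single value, replicate 3 titled 23 Pa CSS lying just under replicate 2 titled no CSS (difference 0.50, adjusted p = 0.222). ACSS2, which activates acetate, ranged from 10.38 to 11.97 titled 23 Pa CSS and from 10.52 to 11.22 titled no CSS (difference 0.27, adjusted p = 0.742). The sign of its difference turned with the mean over its transcript clusters (−0.05), with centring on hybridisation controls (−0.05) and without replicate 1 titled 23 Pa CSS (−0.02). The other transcript cluster in that mean averaged 3.35 titled 23 Pa CSS and 3.71 titled no CSS. It lay below the negative controls, where a difference cannot be read.

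The other 6 build, desaturate or lengthen the chain. SCD, the desaturase that makes monounsaturated fatty acids, had 13.47, 12.50, 12.79 and 12.92 in the samples titled 23 Pa CSS, against 13.23, 14.32, 14.12 and 13.60 in those titled no CSS. Only replicate 1 of each group overlapped with the other group (difference −0.90, 95% interval −1.50 to −0.29, adjusted p = 0.125). The synthase FASN averaged 12.88 ± 0.359 titled 23 Pa CSS and 13.50 ± 0.381 titled no CSS (SD, n = 4 each, difference −0.61, adjusted p = 0.229), and the carboxylase ACACA, which makes malonyl-CoA, 10.20 ± 0.19 titled 23 Pa CSS and 10.74 ± 0.407 titled no CSS (difference −0.55, adjusted p = 0.242). ELOVL6, which lengthens saturated and monounsaturated chains, differed by −0.62 (adjusted p = 0.231). The desaturase FADS2 and the elongase ELOVL5, both on the route to long polyunsaturated chains, differed by −0.49 and −0.28 (adjusted p = 0.512 and 0.452).

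Set side by side, the median difference was −0.03 for sterol enzymes, −0.60 for sterol regulation and transport and −0.49 for fatty acid synthesis, beside 0.09 for all genes and 0.11 for genes with a mean signal of at least 8. The differences ranged from −0.79 to 0.39 in the sterol enzymes, from −1.12 to 1.07 in regulation and transport and from −0.90 to 0.89 in fatty acid synthesis. The groups of samples did not overlap in 7 of the 34 genes, 3 higher and 4 lower in the samples titled 23 Pa CSS, and 5 of these 7 belong to regulation and transport. Among all genes 9.1% were higher and 4.6% lower without overlap, and among those with a mean signal of at least 8 these shares were 18.8% and 10.8%. Scaling changed these medians: with arrays centred on hybridisation controls the all-gene median moved to −0.22, and the medians of the 3 sets in the order above to −0.34, −0.91 and −0.80. This centring takes the same amount from every gene of an array, so the distance of a set from the all-gene median is the same by construction. Without replicate 2 titled no CSS the fatty acid median was −0.26, and no other sample left out moved it by more than 1.5 times. That of the sterol enzymes lay between −0.13 and 0.04 whichever sample was left out. Of the sterol enzymes 3 were above 0 and 14 below with arrays centred on hybridisation controls, and quantile normalization gave a median of 0.14.

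Many members were high or low in the same samples of one title. In the samples titled no CSS, replicate 2 had the highest signal of the group for 21 of the 34 genes and was the lowest for none. Replicate 1 was the lowest for 16, against 18.4% of the genes with a mean signal of at least 8, whereas replicate 4 was the lowest for 17, a share close to the 50.3% among those genes. Of the genes with a mean signal of at least 8, 18.9% had their highest signal of the group in that replicate 2, whereas replicate 1 was the highest for 35.6% and replicate 3 for 33.1%. In the samples titled 23 Pa CSS, replicate 1 was the highest for 21 of the 34, against 42.6% of the genes with a mean signal of at least 8. Fatty acid genes followed this in both groups, with 7 of 9 highest in replicate 2 among samples titled no CSS and 7 of 9 in replicate 1 among those titled 23 Pa CSS. The exceptions among them in the samples titled no CSS were AACS, highest in replicate 1, and ELOVL5, highest in replicate 3. For sterol regulation and transport these counts were 7 of 8 and 4 of 8, and for the sterol enzymes 7 of 17 and 10 of 17.

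The same pattern appears in the medians by sample. Relative to the titled no CSS mean of each gene, the median of the fatty acid genes was −0.06, −0.57, −0.27 and −0.48 in the samples titled 23 Pa CSS and −0.20, 0.38, 0.16 and −0.22 in those titled no CSS. That of the sterol enzymes was 0.22, −0.21, −0.19 and −0.11 in the samples titled 23 Pa CSS and −0.18, 0.28, 0.19 and −0.32 in those titled no CSS. For both sets the range within each title was as wide as the difference between the titles. For sterol regulation and transport the medians were −0.23, −0.66, −0.69 and −0.30 in the samples titled 23 Pa CSS. In those titled no CSS they were −0.26, 0.39, 0.22 and −0.18. The all-gene medians on the same scale lay between 0.04 and 0.14 in the samples titled 23 Pa CSS and between −0.06 and 0.03 in those titled no CSS.

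**Figure D3:**
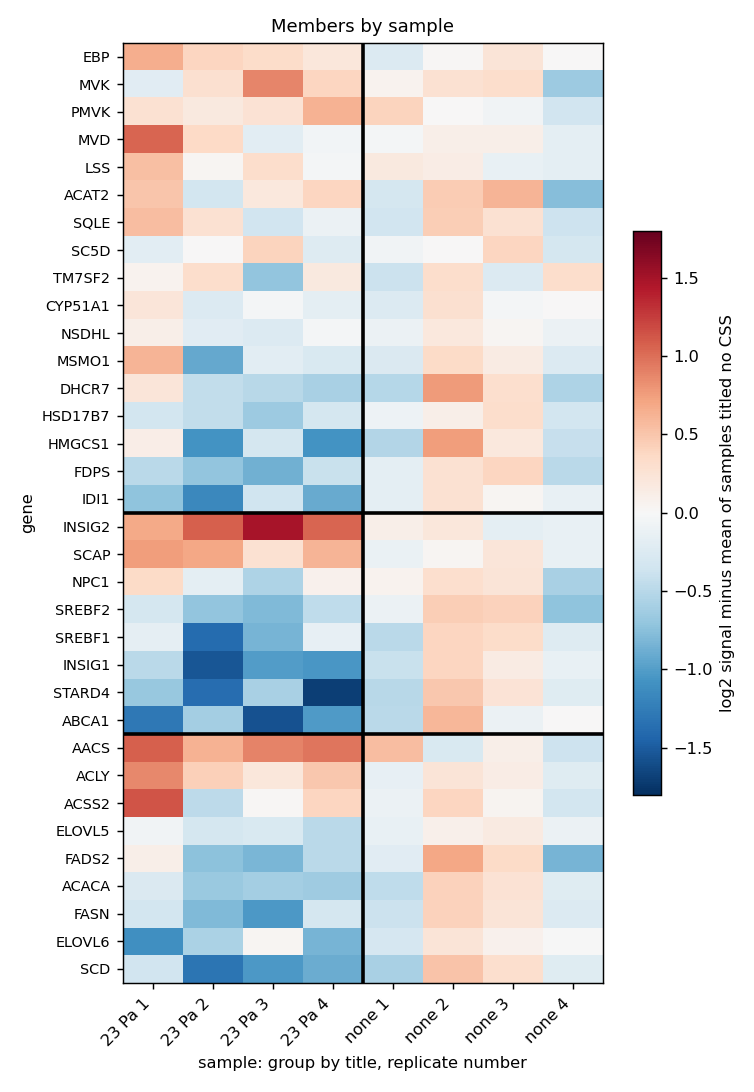
Log2 signal of the 34 measured genes (rows, ordered by difference within each set) in each sample (columns, titled 23 Pa CSS at left and titled no CSS at right), relative to the titled no CSS mean of the gene; red is higher and blue lower. Blue in all 4 samples titled 23 Pa CSS are INSIG1, STARD4, ABCA1, SREBF1, SREBF2, IDI1, FDPS, HSD17B7, FASN, SCD, ACACA and ELOVL5. Red in all 4 are INSIG2, SCAP, AACS, ACLY, PMVK and EBP. Replicates 2 and 3 titled no CSS are red for most sterol and fatty acid genes.

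**Figure D4:**
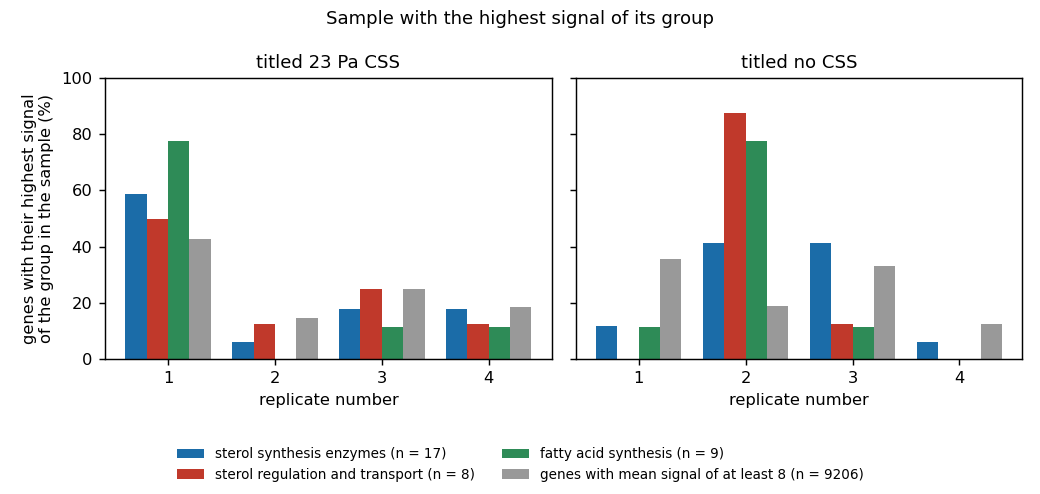
Share of genes (percent, vertical axis from 0 to 100) that have the highest signal of their group in each replicate, for the 3 sets of members and, in grey, for the 9206 genes with a mean log2 signal of at least 8; samples titled 23 Pa CSS are at left and those titled no CSS at right. Replicate 2 titled no CSS holds the highest signal of its group for 21 of the 34 members, against 18.9% of the grey set.

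Related genes outside the 37 were counted in lists. Of 13 measured sterol genes (18 listed), 0 passed limma's threshold and 5 were under 0.05 without adjustment (19.3% of all genes and 37.8% of those with a mean signal of at least 8 were so), with a median of 0.08. LBR, a sterol reductase of the nuclear envelope, and ERLIN1, which acts in the turnover of sterol-regulated proteins of the endoplasmic reticulum, had the smallest p (−0.63 and 0.68, adjusted p = 0.125 and 0.164). Of 21 fatty acid genes (26 listed), 0 passed and 6 were under 0.05 without adjustment, a share between these, with a median of 0.14. SLC25A1, the carrier that brings mitochondrial citrate to ACLY, was higher in all 4 samples titled 23 Pa CSS (9.62 ± 0.16 titled 23 Pa CSS and 8.84 ± 0.267 titled no CSS, SD, n = 4 each, difference 0.78, limma adjusted p = 0.0546), and OXSM, a synthase of mitochondrial fatty acid synthesis, differed by 0.69 (adjusted p = 0.115). Of 6 genes of the LXR system (7 listed), 0 passed and 2 were under 0.05 without adjustment, the partner receptor RXRA (0.63, adjusted p = 0.0799) and SMPDL3A (−0.49, adjusted p = 0.252). ABCG1, an efflux pump related to ABCA1, was at 3.68 on average in the samples titled 23 Pa CSS, below the negative controls.

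The arrays differed little in level. Column medians over all transcript clusters lay between 4.59 and 4.65 in the samples titled 23 Pa CSS and between 4.56 and 4.62 in those titled no CSS. Medians over genes did not overlap, at 5.41 to 5.50 titled 23 Pa CSS and 5.35 to 5.39 titled no CSS. The 4 hybridisation controls averaged 10.39 to 10.66 titled 23 Pa CSS and 9.97 to 10.38 titled no CSS, also without overlap. Their part in the differences of the members was not tested beyond the centring given above. Of 10 markers of glioblastoma lines, 8 had a mean signal of at least 8, with the astrocyte filament GFAP and the lineage factor OLIG2 near background. Their summed linear signal was 227000 to 259000 titled 23 Pa CSS and 192000 to 252000 titled no CSS. Of the 10, only PTPRZ1, a receptor phosphatase, passed (difference −1.38, limma adjusted p = 0.0206). The immune, endothelial and epithelial markers (5, 5 and 4 measured) had mean signals over all 8 samples of at most 5.45, and their summed linear signals overlapped between the groups. None of them passed. The smallest p was that of the immune marker PTPRC, higher in all 4 samples titled 23 Pa CSS (means 5.59 titled 23 Pa CSS and 4.83 titled no CSS, difference 0.75, limma adjusted p = 0.0505).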

How the data were processed

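The deposited table gives log2 signal for 138745 rows in 8 samples, made by the authors with Transcriptome Analysis Console per the submitters' processing notes; version, summarisation, normalization and genome build are not given in the sources used here. Array signal carries no count, so precision rests on the number of arrays. All 135750 transcript clusters were fitted with no filter on signal, leaving out 2995 control rows. The fit used limma 3.58.1 (R 4.3.3) with lmFit and a default eBayes prior of 5.28 degrees of freedom beside 6 residual ones, two-sided, with Benjamini-Hochberg adjustment over all of them. Tables were read with data.table (version 1.17.8) and figures drawn with matplotlib 3.10.9 in Python 3.11.15. Exactly 1 symbol was annotated for 36176 transcript clusters, several for 1119 and none for 98455; symbols were updated by Entrez identifier for the all-gene counts. Promoters came from RefSeq.

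Groups follow the titles. Nothing in the labels says that the 4 samples of a title are separate cultures, so a p-value reflects the spread among these samples alone, which may be technical. Members and lists were chosen with earlier results of these data known, and sets are described by counts and medians without a test. Values of every sample are given for members past the threshold and otherwise for the 3 with the smallest p of each set, and for STARD4, chosen after its values were seen. Of the lists of other sterol, fatty acid and LXR genes the 2 with the smallest p are named. In data simulated from this comparison's 135750 transcript clusters, 24% of 50 changes of 1, 82% of 2 and 96% of 3 on the log2 scale were recovered. The simulation held far fewer changed transcript clusters than the 2727 called in the data, and drew them at any level of signal. These shares therefore cannot be read as the recovery to be had for the members. Alternatives were quantile normalization, centring on hybridisation controls or array medians, a filter on signal, rows with 1 symbol, the mean over a gene's rows, a trended robust prior, array weights, a replicate block and leaving out each sample.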

Additional observations from a re-analysis of the deposited data

Results flagged for a closer look

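Samples far from the others of their title were sought in each of the 68 combinations of a member and a group, as a gap to the nearest sample that exceeds Dixon's critical share of the group's range, which chance alone would pass in about 1 of 20. There were 2 such values, both in replicate 1 titled 23 Pa CSS. DHCR7 was 12.87 there, with the next sample at 12.20 and a gap of 0.839 of the range. ACACA was 10.48 there, with the next sample at 10.13 and a gap of 0.869 of the range.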

How the results depend on the processing

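The count of 2727 changed transcript clusters (2.01% of 135750) became 8581 with centring on hybridisation controls and 1329 with a replicate block. It was 2574 with quantile normalization, 2975 with centring on array medians, 3617 with a trended robust prior and 3031 with array weights. Other settings tested fewer rows, so their counts do not share the base of 2727. They gave 4370 above the median signal, 1744 of 36176 rows with 1 symbol (4.82%) and 1692 of 33616 genes with the mean over a gene's rows. Leaving out 1 sample gave 411 to 5360, where each of the 8 samples moved the count by more than 1.5 times. The 1 member called became 2 with quantile normalization, 9 with centring on hybridisation controls and 2 with centring on array medians. The 9 were all lower, as were 8208 of the 8581 transcript clusters called under that centring. The count of members became 5 above the median signal, 6 among rows with 1 symbol and 7 with the mean over rows. It was 3 each with a trended robust prior and with array weights, and 0 to 3 when 1 sample was left out. It was 0 without any 1 of titled no CSS replicates 2, 3 and 4 and titled 23 Pa CSS replicates 2 and 4, and 3 without titled 23 Pa CSS replicate 3; without titled no CSS replicate 1 the 1 call was AACS (adjusted p = 0.0431). Above the median signal and among rows with 1 symbol the members' differences stayed the same, while the adjusted p of the members called there was lower. The cause of this and of the other moves was not tested. With a replicate block ABCA1 was called (−1.12, adjusted p = 0.0443) and INSIG2 was not (1.07, adjusted p = 0.0672); same-numbered samples deviated with correlations of −0.21 to 0.00 over genes, so the numbers were not taken as pairs.

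The medians of sterol enzymes and fatty acid genes moved to −0.34 and −0.80 with centring on hybridisation controls. That of fatty acid genes was −0.26 without titled no CSS replicate 2. This shift was within the SD of 0.255 that the fatty acid median had among samples of a title. Signs turned only for differences that were called in neither fit. Quantile normalization gave TM7SF2 0.15, NSDHL 0.01 and SC5D 0.14. Centring on hybridisation controls gave ACAT2 −0.13, MVD −0.02, SQLE −0.22, LSS −0.10 and ACSS2 −0.05, and the mean over rows also gave ACSS2 −0.05. Leaving out 1 sample gave −0.07 to 0.39 for ACAT2, −0.06 to 0.24 for SQLE, −0.15 to 0.04 for CYP51A1, −0.16 to 0.19 for TM7SF2, −0.46 to 0.05 for MSMO1, −0.14 to 0.13 for SC5D, −0.27 to 0.08 for NPC1 and −0.02 to 0.51 for ACSS2. INSIG2 was called under 9 of 17 alternatives, ABCA1 under 7, INSIG1 and IDI1 under 6, AACS under 5 and STARD4 under 4. All these calls had the direction reported. For these genes the row filters, the mean over rows, the trended prior and the replicate block leave the difference unchanged by construction. Direction could therefore not turn under those alternatives.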
